A study of Mus musculus with 18 samples.

Results

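BV-2 cells, an immortalised line of mouse microglia, were transfected with a mix of 3 microRNA mimics or with a control mimic, and their poly(A) RNA was sequenced. The comparison rests on all 6 BV-2 libraries among the 18 libraries of the series. In the mix arm, 3 libraries came from cells given, in equal amounts, a mimic of miR-99b-3p, a mimic of miR-140-5p and a mimic of miR-199a-3p. In the control arm, 3 libraries came from cells given a mimic of cel-miR-67, a microRNA of the nematode Caenorhabditis elegans that served as the negative control. Both arms shared the reagent Dharmafect 1, a final mimic concentration of 25 nM and a transfection of 24 h, and neither was genetically modified. The other libraries of the series, 6 from the neuroblastoma line Neuro-2A and 6 from primary mouse astrocytes, serve only as a second measurement of the same mix. No untransfected cells were analysed here, so a difference between the arms does not show which of them moved. The sample descriptions carry the marks No4, No5 and No6 in both BV-2 arms, in the order of the library numbers used here, and their meaning is not given. The labels do not say whether the 3 libraries of an arm came from separate cultures. The p-values set the difference between the arms against the spread of libraries within an arm, and that spread may be technical.

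A microRNA guides the silencing complex to messages whose 3′ untranslated region (UTR) pairs with its seed, the bases 2 to 8 of the mature strand, and the message is then destabilised or translated less. An 8mer site pairs with the whole seed and adds an A opposite the first base, and a 7mer-m8 site lacks that A. Microglia are the resident macrophages of the brain: they take up debris through surface receptors, degrade it in lysosomes, present antigen and respond to interferon. A single microRNA usually lowers many messages by a little, so both single genes and the distribution over all genes are described.

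The mature strands of 2 of the mimicked microRNAs are shown because their seeds define the sites counted below. The sequences are those of RefSeq on GRCm38.p6, with the seed in capitals. miR-199a-3p is encoded at chr1:162217883-162217904 (plus strand) and again at chr9:21496498-21496519 (minus strand), and miR-99b-3p at chr17:17830232-17830253 (plus strand).
miR-199a-3p: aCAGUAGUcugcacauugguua
miR-99b-3p: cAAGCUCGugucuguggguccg

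The following sites lie in 3′ UTRs of genes that the results turn on. They were read in the sense of the message from GENCODE M21 transcripts (mm10), with 10 bases on either side of the site and the 8mer in capitals. The first 4 are the miR-199a-3p sites of Cd151, all within a UTR of 776 nt on the plus strand, and the second and the third are 2 bases apart.
Cd151, chr7:141470722-141470749: ccagccttgcACTACTGAccacgatgat
Cd151, chr7:141470780-141470807: tcccagccccACTACTGAacactactga
Cd151, chr7:141470790-141470817: actactgaacACTACTGActtagactgc
Cd151, chr7:141471300-141471327: gccttttctcACTACTGAtagcatcatg
Vamp3, on the minus strand, holds an 8mer for miR-199a-3p and an 8mer for miR-99b-3p in a UTR of 1730 nt. Pon2, also on the minus strand, holds 1 for miR-199a-3p.
Vamp3, chr4:151048495-151048522: gtttgtaagcACTACTGActcccgctgt
Vamp3, chr4:151048937-151048964: gccgtgttatCGAGCTTAcctattgttt
Pon2, chr6:5264877-5264904: cttgtgcaggACTACTGAtagataacac
A 7mer, AACCACT, known as the seed match of miR-140-5p, is shown as AACCACTA in Ostm1 (plus strand) and Ncstn (minus strand).
Ostm1, chr10:42701124-42701151: tcccttttgaAACCACTAgttgattata
Ncstn, chr1:172066589-172066616: gctgggaacaAACCACTAatttgtcact
The last set holds GGTTGTGA, whose first 7 bases are known as the seed match of the control microRNA cel-miR-67. It is shown in Canx, Serp1 and Ccnb1, all on the minus strand. The UTR of Ccnb1 also holds an AACCACT 7mer.
Canx, chr11:50296034-50296061: ttaacataatGGTTGTGAaatgtaacat
Serp1, chr3:58522793-58522820: tgacttcgtaGGTTGTGAttgatcattt
Ccnb1, chr13:100779569-100779596: cttcaataaaGGTTGTGActtctcattt

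The deposited table held 53342 genes, and the counts summed to 24.4 to 25.6 M per mix library and 18.5 to 24.2 M per control library. The mix libraries lay close together and the control libraries did not. On the log2 scale, deviations from the mean of the arm had an SD of 0.050, 0.056 and 0.058 in mix libraries 1 to 3, against 0.123, 0.153 and 0.093 in control libraries 1 to 3, over 10983 genes. Among 9503 genes with a mean of at least 5 TPM, the abundance per transcript length that the authors deposited, in the control arm, control 2 differed at least 1.5-fold from the mean of the other 2 controls in 162 genes, control 1 in 98 and control 3 in 26. The first principal component separated the arms and held 52.0% of the variance, and the second, with 31.4%, separated control 2 from controls 1 and 3. Because control 2 stands apart, results that rest on it are given with and without it.

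The cells carried microglial RNA. All 20 genes of the microglia and macrophage marker list were above the TPM floor of 1, below which the deposited values are not resolved. Their summed level was 8941 to 9365 TPM in the mix libraries and 9008 to 10344 TPM in the control libraries. Cd68, a lysosomal glycoprotein of phagocytes, stood at 1869, 1918 and 1898 TPM in the mix libraries, against 1797, 1832 and 1627 TPM in the controls, with a log2 fold change of 0.04 ± 0.064 (SE, adjusted p = 0.743). Tyrobp, the adaptor of microglial activating receptors, stood at 937, 960 and 972 TPM in the mix libraries, against 1058, 1040 and 984 TPM in the controls. These marker levels were close between the arms, and Tyrobp did not pass the test (−0.17 ± 0.054, adjusted p = 0.0804). Of 17 homeostatic microglia genes, 13 were above the floor in all 6 libraries. Their list summed to 1690 to 1748 TPM in the mix libraries and 1659 to 1781 TPM in the controls. Of its members, P2ry12 (1.70 to 2.63 TPM) and Tmem119 (2.98 to 6.36 TPM) were low in all 6 libraries, and Sall1 and Siglech were at the floor. All 9 neuron markers and all 10 oligodendrocyte markers were at the floor in every library. Of the astrocyte, endothelial, and fibroblast and pericyte lists, Aldoc (113 to 168 TPM), Flt1 (44.9 to 59.7 TPM) and Acta2 (3.48 to 5.37 TPM) were the members above it in every library, and none of these 3 was called. Slc1a2, an astrocyte glutamate transporter, was called lower by counts while at the floor in every library. In bulk RNA, fewer cells of a type and less RNA per cell cannot be told apart.

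In the mix arm, 809 of the 14961 tested genes were lower and 689 higher than in the control arm at an adjusted p below 0.05 (quasi-likelihood test of edgeR, adjusted after Benjamini and Hochberg), which is 5.41% and 4.61% of the tested genes, or 10.0% in both directions. The changes were small: called genes differed by a median of 0.36 on the log2 scale, 141 genes fell and 142 rose by at least 1.5-fold, and 26 fell and 28 rose by at least 2-fold. The median log2 fold change of all tested genes was −0.002. The TPM of the arms did not overlap in 4903 genes (32.8%). On the TPM scale, tested with limma on log2(TPM + 0.1), the calls were 429 lower and 911 higher, so that 68.0% of the calls were higher, against 46% by counts, with the median of all genes at 0.067.

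The number of calls depended on single libraries. Without control 2, 1610 genes were lower (10.6%) and 1375 higher (9.05%), or 19.6% of 15195 tested genes, and these held 801 of the 809 lower genes and 674 of the 689 higher ones. Without control 1 the fit called 897 lower and 915 higher genes, and without control 3 it called 495 and 418. Leaving out a mix library, which takes away 1 of the 3 closely spaced libraries, left 252 lower and 182 higher genes without mix 1, 267 and 191 without mix 2, and 290 and 191 without mix 3. The biological coefficient of variation was 6.92% with all 6 libraries and 3.78% without control 2. A fold change below is stated to depend on a library only where its call does, and the genes named without such a remark kept their call when any of the 6 libraries was left out.

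**Figure D1:**
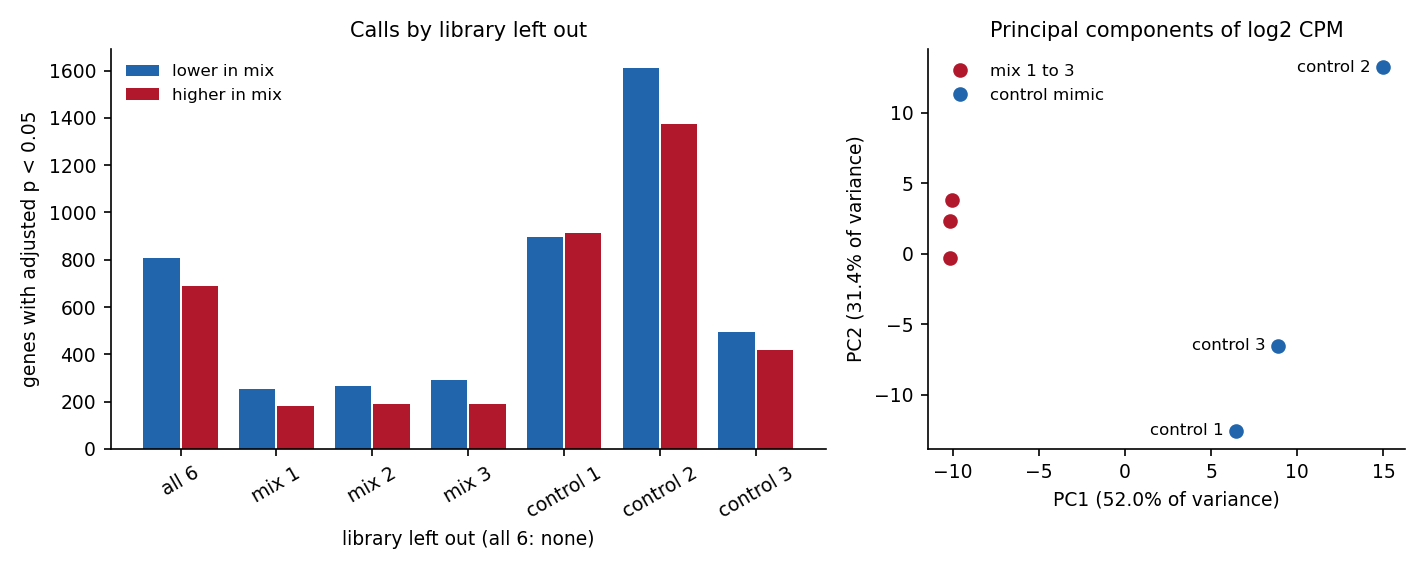
Left, the number of genes called lower (blue bars) and higher (red bars) in the mix arm with all 6 BV-2 libraries and with each library left out, with 1610 lower and 1375 higher genes without control 2. Right, the 6 libraries on the first 2 principal components of log2 CPM (counts scaled to library size), where the 3 mix libraries (red) lie together and control 2 lies away from controls 1 and 3 (blue).

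Apart from Stx11, the genes of this and the next 3 paragraphs are from the 12 largest falls and 12 largest rises of protein-coding genes. They were chosen among called genes whose arms do not overlap, so the gap between the arms was set by the choice, and 32.8% of all tested genes have one. Cd151, a tetraspanin that organises integrins and the gene with 4 miR-199a-3p 8mers, stood at 10.3, 8.93 and 10.6 TPM in the mix libraries, against 28.3, 28.0 and 27 TPM in the controls. The arms lay far apart, and the log2 fold change was −1.55 ± 0.082 (adjusted p = 5.98e-05). Vamp3, a SNARE of recycling endosomes, stood at 29.5, 31.6 and 31.3 TPM in the mix libraries, against 67.9, 69.3 and 69.8 TPM in the controls (−1.23 ± 0.059, adjusted p = 5.98e-05). Vamp3 overlaps Camta1, itself not called, on the same strand, so the count of Vamp3 is uncertain. Of 18 tested SNARE genes, Vamp3 was the 1 that fell and Stx11 (0.28, adjusted p = 0.048) the 1 that rose. Of all tested genes, 5.41% were lower and 4.61% higher. Stx11, whose UTR holds a miR-199a-3p 7mer-m8 site although it rose, lost its call in 5 of the 6 fits that left out a library. Ostm1, a subunit of the lysosomal chloride transporter complex with a UTR that holds AACCACTA, stood at 5.48, 5.57 and 5.28 TPM in the mix libraries, against 10.7, 11.9 and 11.3 TPM in the controls (−1.12 ± 0.076, adjusted p = 9.46e-05). The UTR of Ostm1 also holds a miR-199a-3p 7mer-m8 site. Myo10, a myosin of filopodia, stood at 37.9, 35.2 and 38.3 TPM in the mix libraries, against 80.1, 65.1 and 80.8 TPM in the controls (−1.08, adjusted p = 9.46e-05). Pon2, an intracellular paraoxonase, stood at 10.5, 10.1 and 11.6 TPM in the mix libraries, against 20.8, 20.7 and 21.4 TPM in the controls (−1.03, adjusted p = 8.42e-05). In each of these genes the mix libraries lay within a narrow range.

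Other large falls, those of Il1f9, Treml4 and Tmem39b, lacked an 8mer or 7mer-m8 site of either reference seed. Myo10 lacked one too, and its UTR holds an AACCACT 7mer. Il1f9, an interleukin-1 family cytokine also called interleukin-36 gamma, was low and stood at 1.77, 2.41 and 1.80 TPM in the mix libraries, against 5.14, 5.90 and 6.00 TPM in the controls (−1.59 ± 0.16, adjusted p = 0.000651). Treml4, a receptor of the TREM family, stood at 2.37, 2.15 and 2.79 TPM in the mix libraries, against 5.04, 5.30 and 5.95 TPM in the controls (−1.20, adjusted p = 0.0014). Tmem39b, a membrane protein, stood at 11.4, 12.9 and 12.4 TPM in the mix libraries, against 22.2, 31 and 25.2 TPM in the controls (−1.17, adjusted p = 0.00135). Control 2 was the highest library for Tmem39b. The fold change of Gm20441 (−1.75, adjusted p = 0.000768), 2.80, 4.06 and 5.11 TPM in the mix libraries against 13.2, 12.8 and 12.8 TPM in the controls, is uncertain, since it overlaps Ddt and Gstt3 on the same strand and the counting may split their reads.

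The rises were of similar size. Klra17, a lectin-like receptor of the Ly49 family, stood at 5.51, 5.56 and 5.71 TPM in the mix libraries, against 1.99, 2.32 and 1.89 TPM in the controls (1.35 ± 0.16, adjusted p = 0.0013). Mxd3, a MAX dimerisation protein, stood at 8.72, 8.65 and 8.92 TPM in the mix libraries, against 3.68, 3.71 and 3.91 TPM in the controls (1.14 ± 0.095, adjusted p = 0.000238). Ccnb1, the mitotic cyclin B1 whose UTR holds GGTTGTGA and also an AACCACT 7mer, stood at 103, 107 and 103 TPM in the mix libraries, against 48.6, 48.5 and 56.0 TPM in the controls (0.97 ± 0.062, adjusted p = 8.42e-05). The mix libraries lay within a narrow range in all 3 genes. Antxr1, an anthrax toxin receptor that also holds GGTTGTGA, stood at 28.6, 31.2 and 30.5 TPM in the mix libraries, against 15.8, 12.8 and 16.4 TPM in the controls (0.94, adjusted p = 0.000268). Ankle1, an endonuclease with ankyrin repeats, stood at 30.7, 30.3 and 29.9 TPM in the mix libraries, against 16.4, 14.4 and 15.6 TPM in the controls (0.90, adjusted p = 0.000114). Dvl3, a dishevelled protein of Wnt signalling, stood at 21.5, 22.5 and 22.1 TPM in the mix libraries, against 13.1, 8.89 and 12.4 TPM in the controls (0.88, adjusted p = 0.00191). Control 2 was the lowest control for Antxr1, Ankle1 and Dvl3, and without it their log2 fold changes were 0.86, 0.88 and 0.74.

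Uhmk1, a kinase whose UTR holds both 3 miR-199a-3p 7mer-m8 sites and GGTTGTGA, rose, with 50.4, 51.9 and 52.9 TPM in the mix libraries against 25.8, 19.9 and 24.9 TPM in the controls (1.07, adjusted p = 0.000126). Control 2 was its lowest library. Lrrc73 stood at 9.90, 10.3 and 13 TPM in the mix libraries, against 5.76, 6.09 and 4.60 TPM in the controls (0.93, adjusted p = 0.00749). Hap1, a partner of huntingtin, had a log2 fold change of 0.99 (adjusted p = 0.0105) that missed the threshold without mix 1 or mix 3, with an adjusted p of up to 0.0538. Pdcd1, the immune checkpoint receptor PD-1 (1.00, adjusted p = 0.0194), and Insl3 (1.02, adjusted p = 0.0157) lost their calls without control 3 or any mix library, with adjusted p up to 0.0877 and 0.0849. Insl3 also overlaps Jak3 on the same strand, so its count is uncertain.

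**Figure D2:**
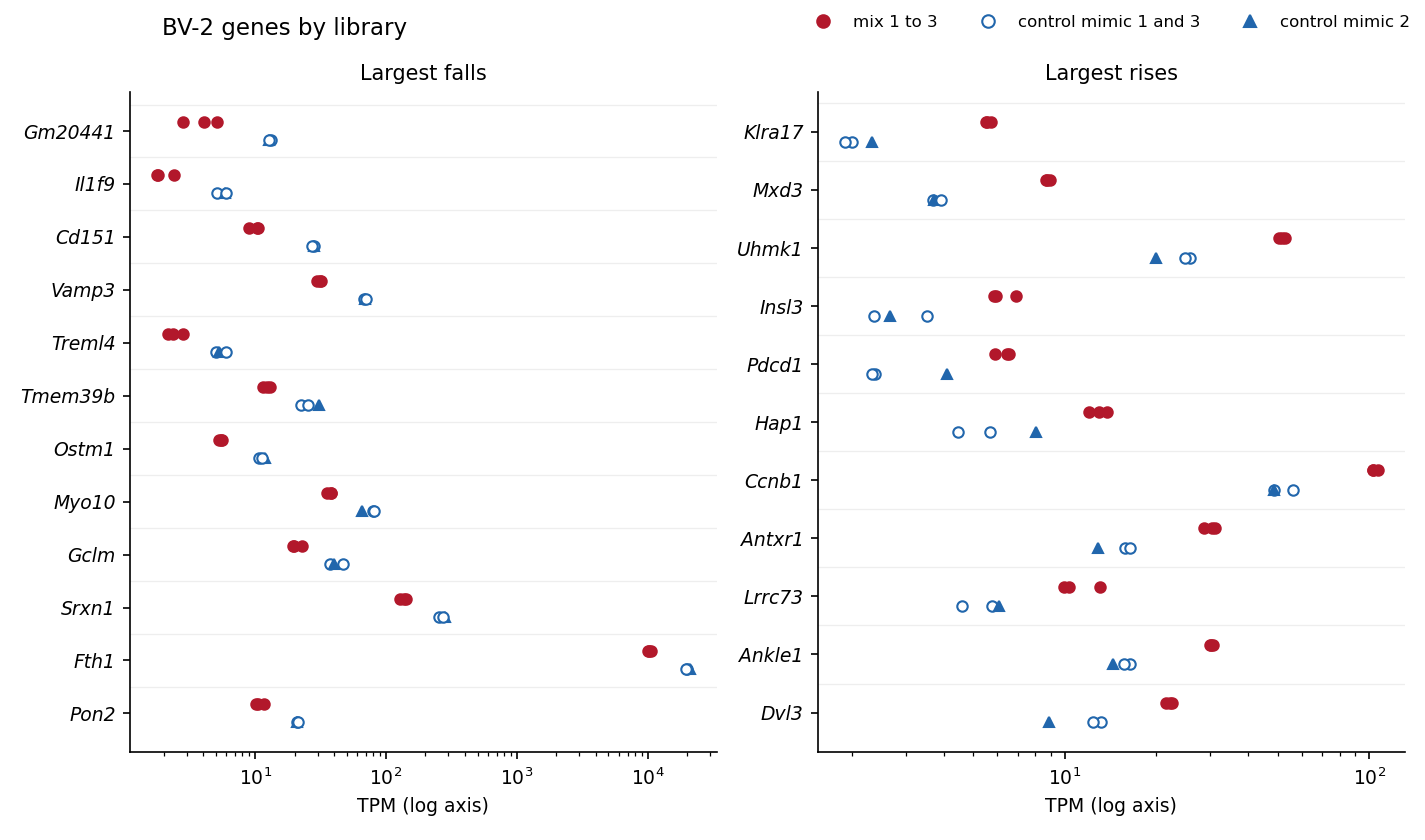
TPM on a log axis of the protein-coding genes with the 12 largest falls (left) and 11 of the 12 largest rises (right) in BV-2, 1 point per library, with the mix libraries in red above the controls in blue. The gap between red and blue points was a condition of the choice of genes, and the triangle marks control 2.

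Seed sites were counted over the 11454 tested genes with an annotated 3′ UTR of at least 20 nt, of which 753 were lower (6.57%) and 631 higher (5.51%), with a median log2 fold change of −0.005. Genes with a miR-199a-3p 8mer or 7mer-m8 site were 974, or 8.5% of these genes. Of them 147 were lower (15.1%) and 41 higher (4.21%), and their median log2 fold change was −0.062. The share lower was larger for the longer sites: 75 of 666 genes (11.3%) with 7mer-m8 sites alone were lower, 67 of 296 (22.6%) with a single 8mer, and 5 of 12 (41.7%) with 2 or more 8mers, with medians of −0.04, −0.12 and −0.16. Of the 9776 genes with no site, 540 were lower (5.52%) and 554 higher (5.67%). The difference was also there at each UTR length. Split by UTR length into 3 equal classes, 24.2% of genes with a miR-199a-3p site were lower, against 4.47% without one, in the shortest class, 17.4% against 7.26% in the middle class and 13.4% against 5.67% in the longest class. Without control 2, the median of the genes with a site was −0.08, with 279 lower and 72 higher. That fit called 13.1% of all genes with a UTR lower and 10.9% higher.

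The sites of miR-99b-3p were rarer. Of 227 genes with one, 28 were lower (12.3%) and 7 higher (3.08%), but the median log2 fold change was −0.011, near that of all genes with a UTR, and it was 0.010 without control 1. Of the 18 genes with an 8mer, 1 was lower, and this was Vamp3, which holds a miR-199a-3p 8mer as well. Lamtor1, a subunit of the Ragulator complex that anchors mTOR at lysosomes, has a miR-99b-3p 7mer-m8 site and stood at 36.6, 34.3 and 36.6 TPM in the mix libraries, against 47, 45.9 and 46.8 TPM in the controls (−0.45 ± 0.056, adjusted p = 0.00182).

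All other 7mers were then taken as the background. Every 7mer held by at least 200 tested genes, 13577 of the 16384 possible, was ranked by the median log2 fold change of the genes whose UTR holds it. The lowest was ACTACTG, the 7mer-m8 match of miR-199a-3p, at −0.062, and the second was ACCACTA at −0.057, which overlaps AACCACT by 6 bases. For comparison, the 5th and 95th percentiles of all ranked 7mers were −0.007 and 0.018. The match of miR-99b-3p, CGAGCTT, was 302nd from the bottom at −0.011. In the independent Neuro-2A and astrocyte libraries, ACTACTG was also the lowest and CGAGCTT the 5th lowest. The lowest 7mer there that shares no 6 bases with either reference match was AACCACT, and it was the 6th lowest in BV-2 (−0.037). The highest there was GGTTGTG, and it was the highest in BV-2 too (0.057).

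AACCACT, chosen in the other cell types and known as the match of miR-140-5p, was held by 1247 genes tested in BV-2, of which 171 were lower (13.7%) and 53 higher (4.25%), with a median of −0.04. With an 8mer, AACCACTA, 45 of 228 genes with 1 site (19.7%) and 2 of 7 with more were lower. Genes that held it together with a miR-199a-3p site were lower in 39 of 215 (18.1%), against 101 of 737 (13.7%) for miR-199a-3p alone and 126 of 993 (12.7%) for AACCACT alone. Any of the 3 matches was in 18.9% of the genes with a UTR, in 38.9% of the lower genes and in 14.6% of the higher ones, so that 460 of the 753 lower genes (61.1%) held none. Among the 122 genes that fell by at least 1.5-fold, 66 held a match.

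GGTTGTG, the match of the control mimic, stood on the other side. Of 1271 genes that held it, 186 were higher (14.6%) and 68 lower (5.35%), and the median was 0.06. The share higher was 18.5% with a single 8mer (77 of 416), and 17.2% in the 861 genes that held GGTTGTG and none of the other 3 (148 genes). It was in 11.1% of the genes with a UTR and in 29.5% of the higher genes, and in 40 of the 117 that rose by at least 1.5-fold. By UTR length, 17.6%, 19.3% and 12.5% of genes with it were higher in the shortest, middle and longest class, against 3.41%, 4.48% and 5.46% without it. Canx, the ER lectin chaperone calnexin, stood at 602, 645 and 604 TPM in the mix libraries, against 328, 302 and 347 TPM in the controls (0.86 ± 0.055, adjusted p = 8.42e-05). Serp1, a protein that stabilises new membrane proteins in the ER, stood at 158, 164 and 158 TPM in the mix libraries, against 87.1, 81.9 and 93.2 TPM in the controls (0.81 ± 0.052, adjusted p = 8.42e-05). Both hold GGTTGTGA and were clearly apart between the arms. A match is a description of the letters in a UTR, and whether a site was bound was not tested.

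**Figure D3:**
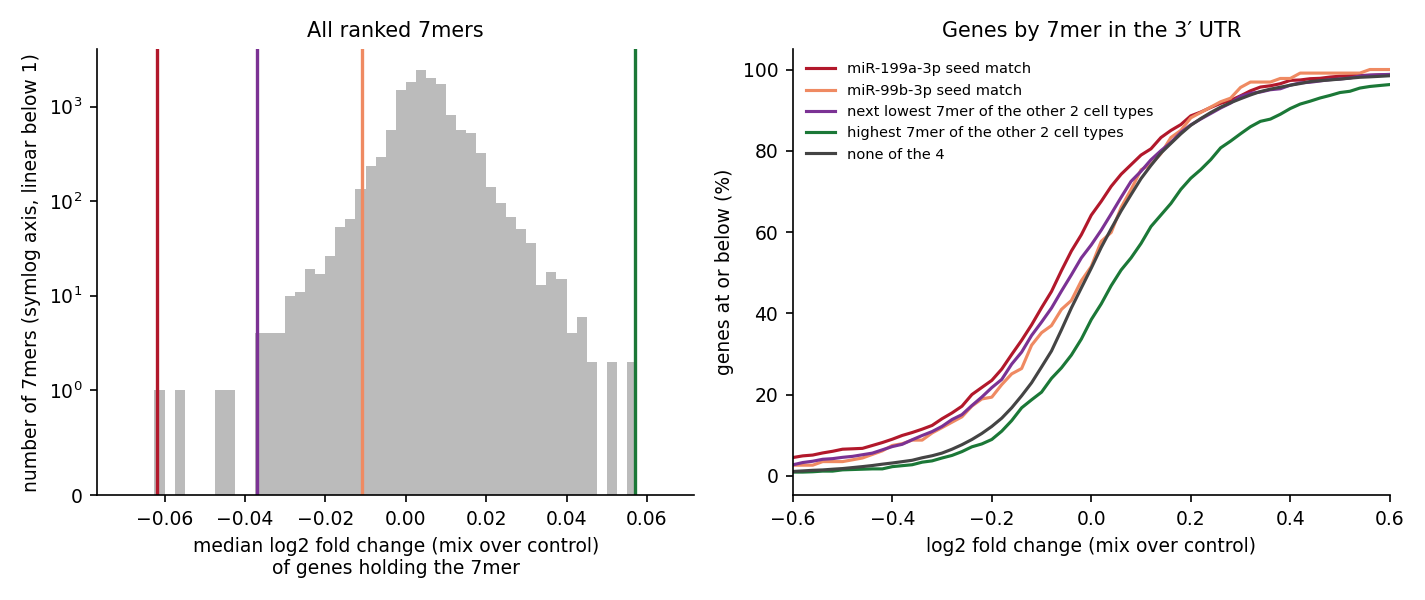
Left, the number of 7mers (vertical axis linear below 1 and logarithmic above) by the median BV-2 log2 fold change of the genes that hold them, with lines at the matches of miR-199a-3p (−0.062), miR-99b-3p (−0.011), AACCACT (−0.037) and GGTTGTG (0.057). Right, the cumulative share of genes by log2 fold change, where genes with miR-199a-3p or AACCACT matches lie left of the genes with none of the 4 (dark grey) and genes with GGTTGTG lie right of them.

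Gene lists are described next by their counts, to be read beside the 5.41% lower and 4.61% higher of all tested genes. All lists were chosen with earlier results of these data known, so their counts are no independent support. The first are targets reported in the literature. Of 15 tested genes on a list for miR-199a-3p, 9 were lower and 0 higher by edgeR (DESeq2 also 0 higher, and 1 at an unadjusted p below 0.05), and the median log2 fold change was −0.34, against −0.002 for all genes. Of these calls, 4 held whichever library was left out, and limma on TPM called 5 lower and 1 higher. Cd44, the hyaluronan receptor, whose longest UTR holds no miR-199a-3p 8mer or 7mer-m8, stood at 126, 129 and 132 TPM in the mix libraries, against 205, 186 and 200 TPM in the controls (−0.68 ± 0.048, adjusted p = 0.000114). That UTR holds a GGTTGTG 7mer, although Cd44 fell. Zhx1, a zinc finger and homeobox repressor with a 7mer-m8 site, stood at 9.01, 10.0 and 9.66 TPM in the mix libraries, against 17.8, 15.5 and 19 TPM in the controls (−0.93 ± 0.077, adjusted p = 0.000238). Both genes were lower in every mix library. Zhx1 overlaps Gm29394, itself not called, on the same strand, so the count of Zhx1 is uncertain. Map3k11, a mixed-lineage kinase, had a log2 fold change of −0.51 (adjusted p = 0.00142). Of 13 tested genes on the list for miR-140-5p, 4 were lower and 2 higher with a median of 0.00, and the calls of Ostm1 and Adam10 held without any 1 library. The silencing machinery itself differed little, with 2 lower and 2 higher of 32 genes. Of the genes that host these microRNAs, Dnm2 stood at 71.7 to 75.9 TPM in the mix libraries against 74.6 to 83.4 TPM in the controls and Wwp2 at 39.3 to 40.3 TPM against 39.6 to 43.9 TPM, neither called, and Dnm3, Dnm3os and Spaca6 were at the floor.

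Several antioxidant and iron genes were lower. Of 26 tested, 10 were lower and 1 higher (Gsr, glutathione reductase, 0.25, adjusted p = 0.0195, lost without control 3 or any mix library, up to 0.117), and the median log2 fold change was −0.13. Of the 10, 7 kept the call whichever library was left out, and limma on TPM called 8 lower. Nfe2l2, which encodes the transcription factor NRF2 that drives many of the others, stood at 151, 156 and 155 TPM in the mix libraries, against 231, 220 and 235 TPM in the controls (−0.64 ± 0.046, adjusted p = 0.000122). Srxn1, sulfiredoxin, stood at 142, 128 and 138 TPM in the mix libraries, against 253, 280 and 272 TPM in the controls (−1.05 ± 0.068, adjusted p = 8.42e-05). The arms of both genes were apart by more than their own range. Slc7a11, the cystine transporter that feeds glutathione synthesis, stood at 49.0, 45.2 and 48.4 TPM in the mix libraries, against 88.7, 80.1 and 102 TPM in the controls (−0.99, adjusted p = 0.000149), and its UTR holds an AACCACTA site. Gclm, the modifier subunit of the rate-limiting enzyme of glutathione synthesis, stood at 22.7, 19.7 and 19.6 TPM in the mix libraries, against 37.1, 40.3 and 47.2 TPM in the controls (−1.07 ± 0.095, adjusted p = 0.000301). The UTR of Gclm holds 1 miR-199a-3p and 1 AACCACT 7mer. Gclm overlaps Gm6061, itself not called, on the same strand, so the count of Gclm is uncertain. The UTRs of Nfe2l2, Srxn1 and Fth1 hold 0 sites of the 4 kinds. Cat, catalase, had a log2 fold change of −0.58 (adjusted p = 0.000274) and Prdx1, a peroxiredoxin, of −0.46 (adjusted p = 0.00656). Fth1, the ferritin heavy chain, was the most abundant of the group at 10178, 9948 and 10661 TPM in the mix libraries, against 19831, 21029 and 19431 TPM in the controls (−1.04 ± 0.062, adjusted p = 8.42e-05), but it has many pseudogenes that can share its reads, so its level is uncertain.

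Genes of the actin cytoskeleton, adhesion and migration were lower in 19 of 46 tested members and higher in 1 (Ezr, the membrane linker ezrin, 0.32, adjusted p = 0.00749, up to 0.0578 without mix 1 or mix 3, which lost the call), with a median log2 fold change of −0.17. The count of lower genes moved with the libraries: 26 were lower without control 2, 16 without control 1, 12 without control 3, and 4 or 5 without a mix library, and limma on TPM called 8. Over all tested genes the lower calls moved too, from 809 (5.41%) with all 6 libraries to 1610 (10.6%) without control 2. They were 897 without control 1, 495 without control 3, 252 to 290 without a mix library and 429 by limma. The 4 that held throughout were Cd151, Myo10, Parvg and Arpc2. Parvg, a parvin that links integrins to actin, stood at 119, 125 and 125 TPM in the mix libraries, against 208, 174 and 191 TPM in the controls (−0.70 ± 0.061, adjusted p = 0.000282). Arpc2, a subunit of the actin-nucleating Arp2/3 complex, had a log2 fold change of −0.34 (adjusted p = 0.00255). The actins themselves were lower by less. Actb stood at 4258, 4281 and 4483 TPM in the mix libraries, against 4918, 5067 and 5022 TPM in the controls (−0.27 ± 0.052, adjusted p = 0.013, up to 0.0998 without a mix library). In the median of the list, control 2 lay at −0.04 from the mean of the 6 libraries on the log2 TPM scale, beside −0.05, −0.06 and −0.03 in the mix libraries and 0.12 and 0.10 in controls 1 and 3.

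Among surface receptors and markers of activated microglia, genes were called in both directions, and the shares of all tested genes are 5.41% lower and 4.61% higher. Of 24 genes of the disease-associated microglia signature, 6 were lower and 2 higher (median −0.08), and of 27 phagocytic, scavenger and complement receptors 6 were lower and 4 higher (median −0.05). Lpl, lipoprotein lipase, stood at 399, 407 and 392 TPM in the mix libraries, against 624, 574 and 643 TPM in the controls (−0.69 ± 0.049, adjusted p = 0.000114). The UTR of Lpl holds a GGTTGTG 7mer, although the gene fell. Lgals3, galectin-3, stood at 2079, 1955 and 1994 TPM in the mix libraries, against 2522, 2461 and 2429 TPM in the controls (−0.37 ± 0.05, adjusted p = 0.00273). Every mix library was below every control for both. Cd36, a scavenger receptor for lipids (−0.71, adjusted p = 0.000301), C3ar1, the receptor for complement C3a (−0.53, adjusted p = 0.000378), and Clec7a, the beta-glucan receptor dectin-1 (−0.59, adjusted p = 0.00401), fell as well. Trem2, the lipid-sensing receptor of microglia, stood at 51.9 to 53.9 TPM in the mix libraries and 49.6 to 56.9 TPM in the controls and was not called. Spi1, which encodes the myeloid transcription factor PU.1, was the 1 of the 20 microglia and macrophage markers called lower: it stood at 224, 225 and 230 TPM in the mix libraries, against 318, 360 and 315 TPM in the controls (−0.62, adjusted p = 0.00135). Of the 15 tested homeostatic genes, edgeR called 0 (1 lower and 2 higher at an unadjusted p below 0.05), limma on TPM 0 and DESeq2 1.

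Of 36 genes of Toll-like receptor and NF-kB signalling, 4 were lower and 1 higher (median −0.04), and of 25 tested cytokines, chemokines and inflammatory enzymes 3 were lower and 4 higher (median −0.05), beside 5.41% lower and 4.61% higher of all tested genes. Cd14, the co-receptor for lipopolysaccharide, stood at 466, 465 and 480 TPM in the mix libraries, against 617, 703 and 590 TPM in the controls (−0.51 ± 0.081, adjusted p = 0.00557), and was the 1 of these 12 calls that held whichever library was left out. Traf6, a ubiquitin ligase downstream of Toll-like receptors, was higher (0.36, adjusted p = 0.0178), as was the cytokine oncostatin M, Osm (0.37, adjusted p = 0.0167). Both carry a GGTTGTG 7mer. Traf6 lost its call without any mix library (up to 0.0948), and Osm without mix 1 or mix 3 (up to 0.0948).

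Among endosomal and lysosomal genes, 6 of 46 lysosome genes were lower and 1 higher (median −0.07). Lipa, the acid lipase, stood at 210, 210 and 207 TPM in the mix libraries, against 258, 243 and 263 TPM in the controls (−0.35 ± 0.045, adjusted p = 0.00206), and Scarb2, which carries glucocerebrosidase to lysosomes and whose UTR holds GGTTGTGA, was higher (0.36 ± 0.054, adjusted p = 0.00408). The UTR of Lipa holds both an AACCACT and a GGTTGTG 7mer. Of 11 tested genes that process the amyloid precursor protein, 3 were lower and 0 higher (0 higher by DESeq2, by limma on TPM and at an unadjusted p below 0.05). Ncstn, the gamma-secretase subunit nicastrin, stood at 60.9, 59.2 and 63.1 TPM in the mix libraries, against 92.9, 83.5 and 83.8 TPM in the controls (−0.57 ± 0.058, adjusted p = 0.000609). Adam10, the main alpha-secretase, with a miR-199a-3p 7mer-m8 site and an AACCACTA site, stood at 92.9, 98.3 and 95.9 TPM in the mix libraries, against 123, 109 and 131 TPM in the controls (−0.40 ± 0.06, adjusted p = 0.00384). No mix library reached the lowest control in these genes.

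Of 35 genes of mTOR signalling and amino acid supply, 6 were lower and 2 higher (median −0.06). Slc7a5, the leucine transporter LAT1 with a miR-199a-3p 8mer and a 7mer-m8 site, stood at 124, 132 and 129 TPM in the mix libraries, against 160, 167 and 176 TPM in the controls (−0.45 ± 0.057, adjusted p = 0.00182). Pik3cb, a catalytic PI3-kinase subunit with 2 miR-199a-3p 7mer-m8 sites, stood at 57.1, 55.7 and 61.0 TPM in the mix libraries, against 95.8, 74.7 and 87.0 TPM in the controls (−0.63 ± 0.076, adjusted p = 0.00142). Both were lower in each mix library. Of 28 tested TGF-beta and BMP genes, 4 were lower and 3 higher (median −0.03), among them Smurf2, a ubiquitin ligase (−0.50, adjusted p = 0.00439), and Bmpr1a, a BMP receptor with a GGTTGTG 7mer (0.45, adjusted p = 0.00282). Of 30 genes of ER folding and the unfolded protein response, 6 were lower and 2 higher (median −0.10). Asns, asparagine synthetase, had a log2 fold change of −0.44 (adjusted p = 0.00196), and the 2 higher genes were Canx and Serp1. Cholesterol genes were 3 lower and 5 higher of 29 tested (median 0.03), and apoptosis genes 4 lower and 2 higher of 28 tested (median −0.05), and none of these calls held in every fit that left out a library.

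Several mitotic genes were higher. Of 30 tested, 11 rose and 0 fell by edgeR (0 lower also by DESeq2, by limma and at an unadjusted p below 0.05), with a median log2 fold change of 0.22. The count was 15 without control 2, 7 without control 1, 11 without control 3, and 3 to 5 without a mix library, and limma on TPM called 15 higher. Over all tested genes the higher calls were 689 (4.61%) with all 6 libraries and 1375 (9.05%) without control 2. They were 915 without control 1, 418 without control 3, 182 to 191 without a mix library and 911 by limma. Ccnb1, described above, Espl1 and Anln held throughout. Espl1, the protease separase that opens sister chromatids, stood at 76.9, 76.5 and 75.6 TPM in the mix libraries, against 49.6, 46.2 and 54.4 TPM in the controls (0.54 ± 0.056, adjusted p = 0.000655). Anln, the cytokinesis protein anillin, stood at 47.5, 49.2 and 46.1 TPM in the mix libraries, against 34.4, 29.9 and 37.3 TPM in the controls (0.43 ± 0.067, adjusted p = 0.00553). The groups did not overlap in either gene. Mki67, the marker of cycling cells, stood at 190, 202 and 186 TPM in the mix libraries, against 162, 127 and 185 TPM in the controls, and was not called (0.22, adjusted p = 0.223). Control 3 was the highest control in 27 of the 30 genes, and in the median of the list it lay at −0.02 from the mean of the 6 libraries, against −0.17 in controls 1 and 2 and 0.09 to 0.20 in the mix libraries. The share of all tested genes in which control 3 was the highest control was not counted. Of 24 genes of G1 control, 1 was lower and 4 higher (median 0.14), and of 36 DNA replication genes 4 were lower and 3 higher (median 0.03). Cdt1, the replication licensing factor, was lower (−0.63, adjusted p = 0.000268), but it shares its locus with Gm20388 on the same strand and its count is uncertain.

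**Figure D4:**
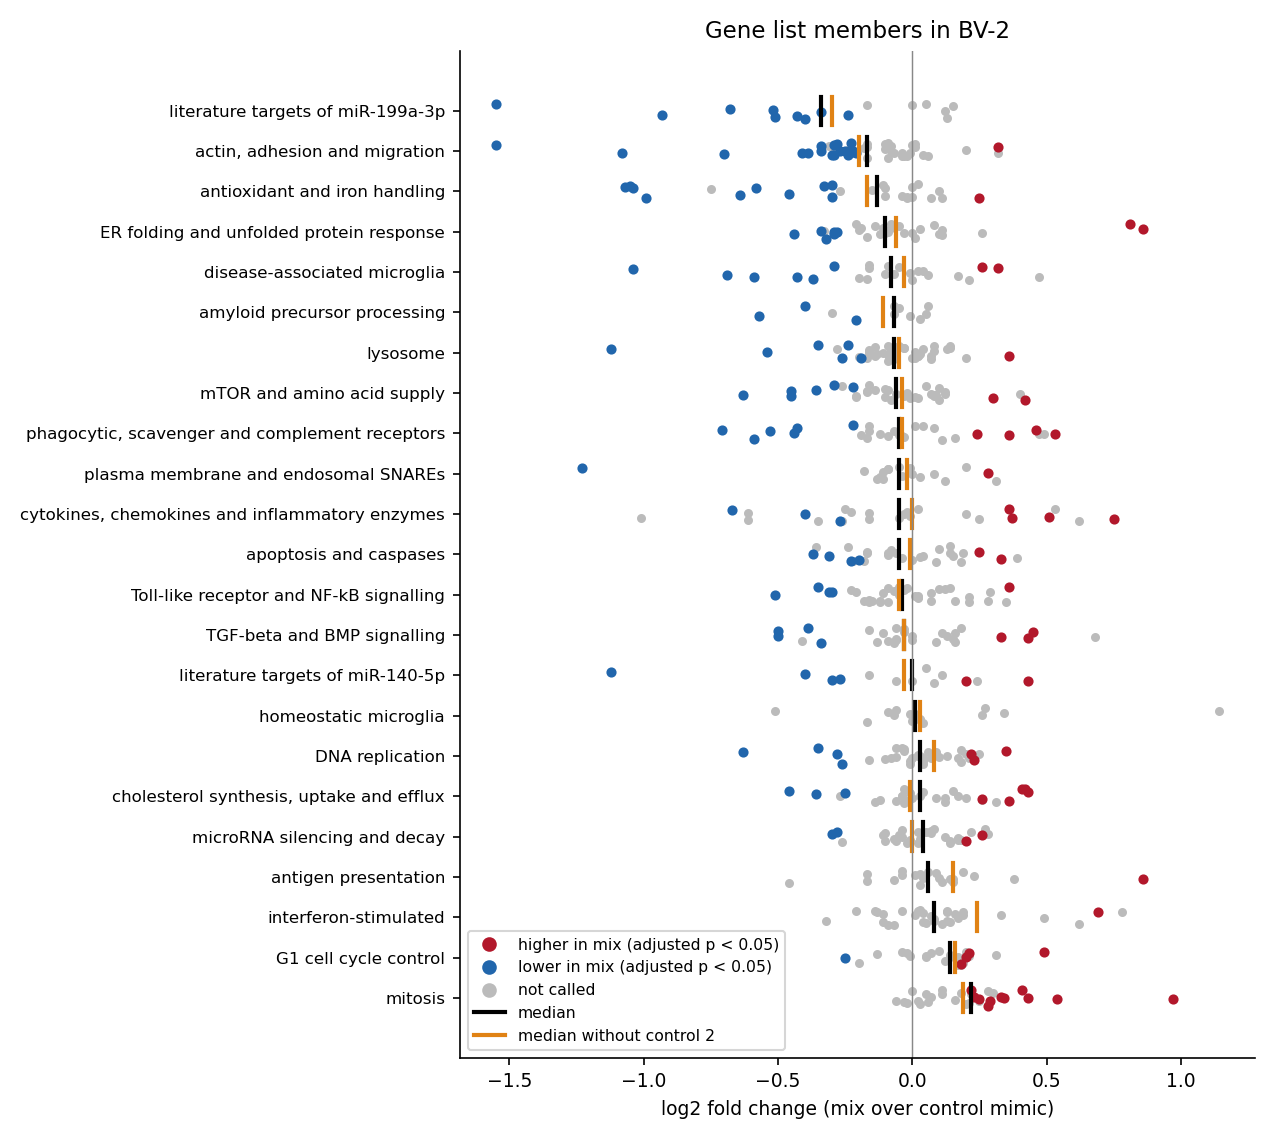
Log2 fold change (mix over control mimic) of each tested member of the gene lists in BV-2, 1 point per gene, with genes called lower in blue, called higher in red and not called in grey. Black ticks are the list medians with all 6 libraries and orange ticks the medians without control 2, which among the lists plotted (cell type markers and host genes are not) move furthest for the interferon-stimulated genes, to 0.24 without it and 0.08 with it.

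The interferon-stimulated genes depended on a single control library. With all 6 libraries, edgeR called 1 of 32 higher and 0 lower (median 0.08), and DESeq2 2 higher and 1 lower. At an unadjusted p below 0.05 in edgeR, 6 were higher and 1 lower. Without control 2, 18 were higher and 0 lower (median 0.24), in a fit that called 9.05% of all tested genes higher and 10.6% lower. Of the 32 genes, 1 was higher and 1 lower without control 1, and 0 were called without control 3 or any mix library. Their summed level was 7670, 7899 and 7604 TPM in the mix libraries, against 5971, 8293 and 5940 TPM in controls 1 to 3, so that control 2 was above the mix libraries and controls 1 and 3 were below them. Control 2 was the highest control in 29 of the 32 genes and above all 3 mix libraries in 17, while all mix libraries were above controls 1 and 3 in 28. The shares of all tested genes with such orders were not counted, so these numbers only describe the list. They are on TPM, where the median log2 fold change of all genes was 0.067 by limma, against −0.002 by counts. The choice of control 2 as the library to leave out followed from its values, so the call without it is no independent support.

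Rsad2, the antiviral enzyme viperin, stood at 690, 706 and 661 TPM in the mix libraries, against 336, 508 and 364 TPM in the controls, and was the 1 member called with all libraries (0.69 ± 0.15, adjusted p = 0.0199). The mix libraries were above all 3 controls, and the log2 fold change was 0.93 (adjusted p = 5.25e-06) without control 2, while the call was lost without control 3 or any mix library (up to 0.0888). Cxcl10, an interferon-induced chemokine, stood at 169, 170 and 153 TPM in the mix libraries, against 64.2, 133 and 73.0 TPM in the controls (0.78 ± 0.24, adjusted p = 0.0744), and at 1.22 (adjusted p = 6.61e-06) without control 2. Isg15, a ubiquitin-like modifier, stood at 1003, 1014 and 958 TPM in the mix libraries, against 717, 1269 and 732 TPM in the controls. Control 2 was the highest of all 6 libraries here, and the log2 fold change was 0.05 (adjusted p = 0.914) with it and 0.41 (adjusted p = 0.000148) without it. Mx1, an antiviral GTPase, stood at 29.6, 31 and 28.9 TPM in the mix libraries, against 15.4, 27.4 and 17.4 TPM in the controls, with a log2 fold change of 0.49 (adjusted p = 0.15) with control 2 and 0.83 without it.

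Antigen presentation genes followed the same libraries. Of 21 tested, edgeR called 1 higher (Canx) and 0 lower with all libraries (median 0.06, with 0 lower by DESeq2 and 1 at an unadjusted p below 0.05), and 11 were higher without control 2 (median 0.15), beside 9.05% of all tested genes. Tap1, the peptide transporter that loads class I molecules, stood at 97.2, 101 and 97.0 TPM in the mix libraries, against 77.0, 96.3 and 72.4 TPM in the controls, with a log2 fold change of 0.19 (adjusted p = 0.323) with control 2 and 0.36 (adjusted p = 0.000482) without it. Control 2 was the highest control in 17 of the 21 genes and the lowest in 3, Canx among them. The share of all tested genes with these orders was not counted.

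**Figure D5:**
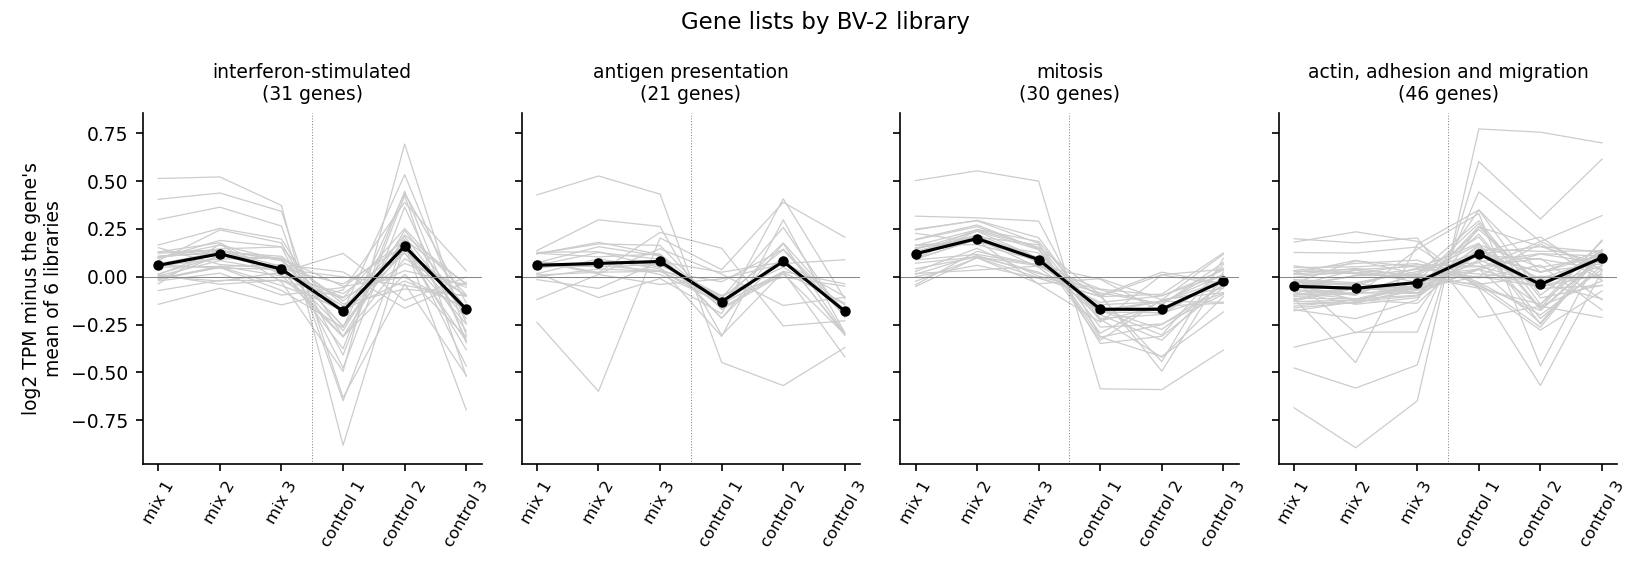
Log2 TPM minus the mean of the 6 libraries for each gene (grey lines) and the list median (black) across the 3 mix libraries, left of the dotted line, and the 3 controls, right of it. In the interferon-stimulated and antigen presentation lists control 2 lies with the mix libraries, at 0.16 and 0.08 in the median, and in the mitosis list control 3 lies nearest to them.

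The gene that lay farthest apart among the controls was Fam89b, which was called lower (−5.79, adjusted p = 0.0346) but lost its call without control 1, control 3 or any mix library, with an adjusted p of up to 0.143. It overlaps Sssca1 on the same strand, so its count is uncertain. Arg1, Nos2 and Selenbp1 also lay far apart among the controls and did not pass the test between the arms. Arg1, arginase 1, stood at 10.9, 6.09 and 12.3 TPM in the mix libraries, against 14.2 TPM in control 1, the floor in control 2 and 5.06 TPM in control 3 (adjusted p = 0.699). Nos2, the inducible nitric oxide synthase, stood at 39.2, 27.3 and 48.2 TPM in the mix libraries, against 57.0, 8.64 and 27.2 TPM in the controls (0.25, adjusted p = 0.813), and Selenbp1, a selenium-binding protein, at 98.4, 73.2 and 112 TPM in the mix libraries, against 146, 27.3 and 73.5 TPM in the controls (0.15, adjusted p = 0.881). In these 3 genes control 1 was the highest and control 2 the lowest library. Their log2 fold changes were −0.08, −0.20 and −0.27 without control 2.

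The effect of the mix in BV-2 was compared with the mean of its effects in Neuro-2A and astrocytes, in 1 fit of all 18 libraries. It differed in 1060 of 20308 tested genes (5.22%), lower in BV-2 in 561 (2.76%) and higher in 499 (2.46%). Cd151 fell less in BV-2 (−1.55) than in Neuro-2A (−2.32) and astrocytes (−2.63), a difference of 0.91 ± 0.17 (adjusted p = 0.00494), and Vamp3 differed by 0.33 ± 0.068 (adjusted p = 0.00759), with −1.23 in BV-2, −1.18 in Neuro-2A and −1.97 in astrocytes. Adam10 fell by less than in the mean of the other cells too (difference 0.37, adjusted p = 0.00675). Pigq, a subunit of the enzyme that starts glycolipid anchors and the gene with the smallest p in this direction, stood at 25.7, 25.1 and 28.0 TPM in the BV-2 mix libraries, against 32.9, 30.3 and 31.6 TPM in the controls, a log2 fold change of −0.33 (adjusted p = 0.0101, up to 0.0782 without mix 1 or mix 2, which lost the call), against −1.0 in Neuro-2A and −1.18 in astrocytes (difference 0.75 ± 0.06, adjusted p = 2.38e-06).

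In other genes the effect in BV-2 was below that elsewhere, or above it. Dusp7, a phosphatase of ERK kinases, was lower in BV-2 (−0.33, adjusted p = 0.00402) and higher in Neuro-2A (0.76) and astrocytes (0.42), a difference of −0.93 ± 0.089 (adjusted p = 8.06e-06). Rassf8, a Ras association domain protein, stood at 47.1, 46.2 and 50.4 TPM in the BV-2 mix libraries, against 70.3, 56.4 and 68.1 TPM in the controls (−0.50, adjusted p = 0.00355), with 0.21 in Neuro-2A and 0.32 in astrocytes (difference −0.78 ± 0.081, adjusted p = 1.59e-05). Lgals3 and Lipa differed by −0.89 (adjusted p = 0.0014) and −0.83 (adjusted p = 0.000821). Slc4a8, a sodium bicarbonate transporter, was low but higher in BV-2 mix libraries, at 2.36, 2.31 and 2.22 TPM, than in the controls, at 1.04, 1.04 and 1.17 TPM, and its effect differed by 0.93 ± 0.082 (adjusted p = 6.36e-06). Hmga1, a chromatin architectural protein, stood at 818, 782 and 797 TPM in the BV-2 mix libraries, against 775, 781 and 755 TPM in the controls, so that the arms lay next to each other, with a log2 fold change of −0.02 by counts, against 0.59 in Neuro-2A and 1.16 in astrocytes (difference −0.90 ± 0.07, adjusted p = 2.38e-06). The cell types also differ in how closely their libraries lie, with a biological coefficient of variation of 8.64% in Neuro-2A and 3.52% in astrocytes, and without mix 1 the differences called were 246 lower and 319 higher.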

How the data were processed

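Libraries were directional and made from poly(A) RNA, per the labels' protocols. The submitters' processing notes name STAR 2.7.10b, Trimmomatic 0.39 and the build mm10. How reads were counted, and on which annotation, is not given in the sources used here, so reads of overlapping genes may be split in an unknown way. The authors deposited read counts per gene, which are expected counts here, since 35.7% to 38.6% of the values in a BV-2 library were fractional. The authors also deposited log2 TPM, per the file headers, with every TPM of 1 or less at 0. These were returned to the linear scale to print levels, and a value at this floor is not resolved.

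Counts were rounded and tested in the 6 BV-2 libraries with edgeR 4.0.16 in R 4.3.3 (filterByExpr with a minimum count of 10, TMM, glmQLFit and glmQLFTest, Benjamini-Hochberg over all tested genes, threshold 0.05). The SE of a log2 fold change was its size over the square root of F. The difference between cell types was a contrast in a fit of all 18 libraries. In data simulated on these libraries, 100 of 100 genes changed 2-fold and 99 of 100 changed 1.5-fold were called, with 14 unchanged genes called among 14823 tested. The changed genes were drawn only from genes with high counts, and no simulated library was set apart from its arm. These shares therefore do not carry over to genes at a few TPM or to controls that lie apart. Alternatives were RLE scaling, DESeq2 1.42.0, no filter, limma 3.58.1 on log2(TPM + 0.1) and log2(TPM + 1), the replicate number as a block, a fit of all 18 libraries, and each BV-2 library left out.

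The longest 3′ UTR of each gene came from GENCODE M21, in which 99.8% of the identifiers were found. The RefSeq table held miR-199a-3p and miR-99b-3p. Sites of 7 bases are given for each message on its own strand. Not every match in the UTR of a named gene is mentioned. Sites, 7mers and gene lists are described by counts and medians, with no test.

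The genes named were the 12 largest falls and 12 largest rises among called protein-coding genes with a mean of at least 5 TPM in the higher arm and no overlap, up to 3 members of each list with the smallest adjusted p, abundant markers, host genes, the 6 smallest p of the cell type difference in each direction, and the 5 genes farthest from the other controls in each control. Other genes named (among them Slc7a11, Cat, Prdx1, Actb, Gsr, Ezr, Isg15, Mx1, Tap1, Trem2, Mki67 and Spi1) were chosen after their values were seen. The members, lists and 7mers were chosen with earlier results of these data known. Some genes that the rule took are not described, and some results are not reported here.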

Additional observations from a re-analysis of the deposited data

Results flagged for a closer look

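The difference between the mix effect in BV-2 and the mean of its effects in Neuro-2A and astrocytes was called in 1060 genes by edgeR's quasi-likelihood test, and 12 of them, the 6 with the smallest p in each direction, are listed here for that reason. Lower in BV-2 were Hmga1 (−0.90, adjusted p = 2.38e-06), Dusp7 (−0.93, adjusted p = 8.06e-06), Rassf8 (−0.78, adjusted p = 1.59e-05), Spsb4 (−0.93, adjusted p = 1.85e-05) and Cln8 (−0.56, adjusted p = 2.5e-05). Hmga1b (−0.90, adjusted p = 7.46e-06) is a near-identical copy of Hmga1, so the reads of the pair are uncertain. Higher in BV-2 were Pigq (0.75, adjusted p = 2.38e-06), Slc4a8 (0.93, adjusted p = 6.36e-06), Golm1 (0.60, adjusted p = 8.06e-06), Kdm1a (0.59, adjusted p = 8.06e-06), Selenot (0.80, adjusted p = 8.06e-06) and Syt11 (1.04, adjusted p = 9.95e-06).

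Among the genes with a higher effect in BV-2, 4 were lower in both other cell types without a call in BV-2. Golm1, a Golgi membrane protein, had log2 fold changes of −0.17 in BV-2, −0.80 in Neuro-2A and −0.78 in astrocytes. Kdm1a, a histone demethylase, had −0.02, −0.58 and −0.66 in the same order of cells. Selenot, a selenoprotein of the ER whose UTR holds a miR-199a-3p 7mer-m8 site and a GGTTGTG 7mer, had 0.19, −0.58 and −0.66. Syt11, a synaptotagmin, had 0.24, −0.73 and −0.88. The calls refer to edgeR with all 6 BV-2 libraries. All 12 differences kept their call under RLE scaling, DESeq2, no filter, the block and each BV-2 library left out.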

How the results depend on the processing

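All 69 genes named with a call in BV-2 kept their direction, and 55 their call as well, under every alternative that gave them an adjusted p (DESeq2 gave none for 3 of them, Slc1a2, Insl3 and Klra17, and limma none for Slc1a2). The calls lost were 0 with RLE scaling and without control 2, 1 to 3 with DESeq2, no filter, limma, a block, the fit of all 18 libraries or without control 1, 6 without control 3, and 13, 10 and 11 without mix 1, 2 and 3. The 809 lower genes were 429 and 430 with limma on TPM at the 2 pseudocounts, and 252 to 1610 with 1 library left out. The 689 higher genes were 182 to 1375 with 1 library left out. The difference from the other cell types, 561 lower and 499 higher, was 876 and 758 with DESeq2, 246 to 895 and 272 to 675 with 1 library left out. The same-number correlations of library deviations between the BV-2 arms were −0.026, 0.237 and −0.026, so the numbers were not taken to pair the libraries. With the replicate number as a block, 785 genes were lower and 708 higher, and the difference was 1246 lower and 1021 higher. The median of miR-199a-3p genes was −0.062, −0.120 with 8mers alone, −0.043 with 7mer-A1 sites added and −0.079 to −0.044 with 1 library left out. That of miR-99b-3p genes was −0.011, and −0.028 to 0.010 with 1 library left out, with the sign turned without control 1. The cause was not tested for any of these.

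The sign turned in genes without a call. With limma on TPM (both pseudocounts) it was 0.05 for Hmga1, 0.06 for Hmga1b and 0.05 for Kdm1a. With 1 library left out, the log2 fold change ranged over −0.22 to 0.04 for Aldoc (above 0 without control 1), −0.08 to 1.88 for Arg1, −0.20 to 1.06 for Nos2, −0.27 to 0.87 for Selenbp1 and −0.01 to 0.85 for Tymp (these 4 below 0 without control 2), −0.02 to 0.11 for Cd68 (below 0 without control 3), −0.53 to 0.33 for Fos (0.33 without control 3 and 0.05 without mix 1), −0.10 to 0.41 for Isg15 (−0.10 without control 1 and −0.09 without control 3), −0.04 to 0.02 for Hmga1, −0.05 to 0.04 for Hmga1b (these 2 above 0 without control 2, and Hmga1b at 0.01 without mix 2) and −0.03 to 0.01 for Kdm1a (0.01 without control 3 and 0.00 without mix 1). Genes at a few TPM are limited by depth, with 18.5 to 25.6 M counts per library.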

Other observations

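Several values that separate single libraries lie in genes that overlap another gene on the same strand. Fam89b was at the floor, 1.32 TPM and the floor in the mix libraries, against 37.9 TPM, the floor and 33.7 TPM in controls 1 to 3, and its log2 fold change of −5.79 (adjusted p = 0.0346, edgeR) rests on controls 1 and 3. Its rounded counts were 0, 13 and 0 in the mix libraries and 370, 3 and 254 in the controls, while those of Sssca1, which it overlaps, were 1698, 1641 and 1654 in the mix libraries and 1110, 1694 and 863 in the controls. Where Fam89b was high, Sssca1 was low. Tymp had 242, 224 and 253 counts in the mix libraries and 217, 30 and 183 in the controls, and its neighbour Sco2 had 483, 421 and 487 in the mix libraries and 441, 781 and 385 in the controls. Pdf had 31, 33 and 31 counts in the mix libraries and 49, 20 and 385 in the controls, and Cog8 had 2207, 2088 and 2133 in the mix libraries and 2146, 2421 and 1435 in the controls. How the counting divided reads between these pairs was not tested.

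Fos, an immediate early gene, stood at 30.8, 35.3 and 63.3 TPM in the mix libraries, against 30.7, 34.1 and 73.6 TPM in the controls, so that the library numbered 3 was the highest in both arms. It was not called (adjusted p = 0.851).

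The summed TPM of the cytokine and chemokine list was 8168 to 8772 in the mix libraries and 10370 in control 2, against 8240 in control 1 and 8289 in control 3. The DNA replication genes were lowest in control 1 among the controls in 31 of 36, and the share of all tested genes was not counted.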
